A study of Homo sapiens with 3 samples.

Results

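The 10 genes described here encode the transcriptional output and the terminal kinases of the Hippo pathway. They are the coactivators YAP1 and WWTR1 (the gene for TAZ), the DNA-binding factors TEAD1, TEAD2, TEAD3 and TEAD4, the kinases LATS1 and LATS2, and the responsive genes AMOTL2 and ANKRD1. They were chosen by gene name, and all 10 were found among the 60605 genes of the deposited table. Poly(A) RNA had been sequenced in 3 libraries of RCC4, an established human line of clear cell renal carcinoma in which VHL is inactive and which here carried a lentiviral Cas9 vector. The libraries form 1 group, biological replicates of 3 flasks each, given IFN-gamma (1000 U/mL) together with TNF (25 ng/mL) for 24 h. Untreated cells were not analysed here, so every value is a level in treated cells or a ratio within a library, and no response to the cytokines can be read from it.

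YAP and TAZ do not bind DNA themselves. In the nucleus they join TEAD factors, which recognise the M-CAT element, and switch on genes for growth, matrix and the cytoskeleton. When the pathway is active, the kinases MST1 and MST2 activate LATS1 and LATS2, which phosphorylate YAP and TAZ, so that both are held in the cytoplasm by 14-3-3 proteins or degraded. Several YAP and TAZ targets feed back on the pathway, LATS2 and AMOTL2 among them. In the kidney the pathway is known for its part in nephron formation and in tubule repair. Control is largely by phosphorylation and location of the proteins, which RNA levels do not show.

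The letters GGAATG, the core of the M-CAT element, which read as CATTCC on the other strand, were searched on both strands of the RefSeq promoter windows of GRCh38.p14, which run from 250 bases before to 50 bases after a gene's start. Of all 35116 windows, 14% held the motif. Entries were matched for 8 of the 10 genes (12 windows), and 4 of these genes (4 of 12 windows, 33.3%) held it: ANKRD1, AMOTL2, LATS2 and YAP1. The stretches around those matches are shown because 3 of these genes are known targets, together with the longer window of CCN2, a target that is not one of the 10 but serves below as a contrast in level. Sequences run 5′ to 3′ on the gene's strand, and capitals mark the motif.
ANKRD1, chr10:90921278-90921337, minus strand: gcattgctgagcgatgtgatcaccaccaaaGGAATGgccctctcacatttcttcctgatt
ANKRD1, chr10:90921198-90921227, minus strand: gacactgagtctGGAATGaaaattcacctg
AMOTL2, chr3:134374499-134374528, minus strand: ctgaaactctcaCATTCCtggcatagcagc
LATS2, chr13:21061560-21061589, minus strand: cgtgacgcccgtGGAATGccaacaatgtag
YAP1, chr11:102110197-102110446, plus strand: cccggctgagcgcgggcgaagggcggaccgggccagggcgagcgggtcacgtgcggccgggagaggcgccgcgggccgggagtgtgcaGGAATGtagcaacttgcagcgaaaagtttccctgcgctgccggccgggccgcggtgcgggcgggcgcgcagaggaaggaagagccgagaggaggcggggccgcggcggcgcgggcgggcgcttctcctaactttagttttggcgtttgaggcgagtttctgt
CCN2, chr6:131951383-131951622, minus strand: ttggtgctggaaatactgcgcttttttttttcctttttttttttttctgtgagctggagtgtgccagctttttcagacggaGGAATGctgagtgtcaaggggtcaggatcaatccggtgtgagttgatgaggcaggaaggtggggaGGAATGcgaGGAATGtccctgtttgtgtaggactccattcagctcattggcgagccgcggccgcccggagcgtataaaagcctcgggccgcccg

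The ANKRD1 matches began 220 and 128 bases before the RefSeq start, and the CCN2 matches 169, 104 and 95 bases before it. AMOTL2 has 2 windows, of which the second held the motif, 69 bases before its start. The YAP1 match began 162 bases before the start and the LATS2 match at base 10 from the start, counting the start as base 1. The 30-base ANKRD1 and AMOTL2 stretches lie within exons of those genes in GENCODE 29, and the YAP1 stretch lies within an exon of the long noncoding gene AP001527.2 on the other strand. The AP-1 motif TGANTCA, which reads the same on both strands, was in the windows of ANKRD1, 195 bases before the start, and of LATS1, 245 bases before it, against 7.71% of all windows. The motifs of interferon-activated factors, GAS (TTCNNNGAA) and ISRE (TTTC, any 2 bases and then again TTTC, on either strand), were in none of the 12 windows and in 7.66% and 3.57% of all windows. A match is a description of letters in this window, not of binding.

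The libraries held 26264283 to 33458691 reads assigned to genes. Levels are given as RPKM, which is the CPM (reads scaled to library size with TMM) divided by the exon length in kilobases, and errors are the SD of the 3 libraries. In bulk RNA, fewer expressing cells and less RNA in each cell cannot be told apart. Replicate 1 stood apart from the other libraries, more so for transcripts of low GC content, so the level of each of the 10 genes is also given without it. Markers of the labelled cell type were present: all 7 renal epithelial and clear cell carcinoma markers were detected, with KRT8 highest at 147 RPKM. PAX8 was lowest at 1.46 RPKM, but other genes span 95.7% of its exon length. All its reads divided by the length outside them gave 33.97 RPKM. Here and below, such a value is too high where reads inside the overlap were counted. Of 13 fibroblast, endothelial and leukocyte markers, 1 was detected (COL1A1, 0.754 RPKM), and CD3E, PTPRC, COL1A2, LUM and KDR were listed at 0. All 10 pathway genes were detected, meaning that no library fell under a CPM of 1, as was true of 51.4% of 19861 protein-coding genes reached. Their median level was 16.7 RPKM, against 0.460 RPKM for all protein-coding genes and 5.96 RPKM for the detected ones.

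The coactivators stood within 2-fold of each other, with WWTR1 the higher. YAP1 (chromosome 11, 102110461 to 102233423, plus strand; GRCh38, GENCODE 29) stood at 12.8, 16.6 and 16.6 RPKM in replicates 1, 2 and 3. Its mean level was 15.3 ± 2.20 RPKM (SD, n = 3) from 2187, 2832 and 3646 reads, and 16.6 RPKM without replicate 1. WWTR1 (chromosome 3, 149517235 to 149736714, minus strand) stood at 15.5, 19.2 and 21.1 RPKM. The mean level of WWTR1 was 18.6 ± 2.87 RPKM from 3533, 4380 and 6180 reads, and 20.1 RPKM without replicate 1. Replicate 1 was the lowest library for both coactivators. Within each library WWTR1 was above YAP1: the log2 ratio YAP1/WWTR1 was -0.27, -0.21 and -0.34 in replicates 1, 2 and 3. Its mean, -0.27 ± 0.07, was past the replicate spread, a call that needed 1 sign throughout and a mean larger than 2 SD. No p-value accompanies such a call, since an exact sign-flip test of 3 values cannot go below 0.25. After a correction of the GC trend between libraries the mean ratio was -0.28 with an SD of 0.21, and the call was lost. The ratio was larger, -0.69, without length scaling and -0.79 with the length of the longest coding transcript, over which the level of WWTR1 was 31.1 and that of YAP1 17.9 RPKM. YAP1 made up 45.3%, 46.4% and 44.1% of the summed YAP1 and WWTR1 level in RPKM, and 36.6% in the mean with the longest coding transcript.

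The TEAD factors, by contrast, were expressed very unevenly. TEAD4 (chromosome 12, 2959330 to 3040673, plus strand) stood at 79.98, 56.9 and 51.7 RPKM in replicates 1, 2 and 3, a mean level of 62.8 ± 15.1 RPKM from 4934, 3509 and 4083 reads. Without replicate 1, its highest library, TEAD4 stood at 54.3 RPKM. TEAD3 (chromosome 6, 35473597 to 35497076, minus strand) stood at 16.4, 13.0 and 11.96 RPKM, or 13.8 ± 2.35 RPKM, and 12.5 RPKM without replicate 1. The libraries again fell in the order 1, 2 and 3 from high to low, as for TEAD4.

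TEAD1 ran the other way. This gene (chromosome 11, 12674591 to 12944483, plus strand) stood at 6.80, 13.7 and 14.1 RPKM from 1897, 3838 and 5049 reads, a mean level of 11.6 ± 4.12 RPKM. Replicate 1 was far below the other libraries, which lay close together, and without it TEAD1 stood at 13.9 RPKM. TEAD2 (chromosome 19, 49340595 to 49362457, minus strand), the factor of early embryos and neural precursors, was the lowest of the 10 genes. The level of TEAD2 was 2.87, 1.91 and 1.94 RPKM from 232, 155 and 201 reads, a mean of 2.24 ± 0.543 RPKM and 1.93 RPKM without replicate 1. Other genes span 43.4% of the exon length of TEAD2, and all its reads divided by the exon length outside them gave 3.96 RPKM.

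**Figure D1:**
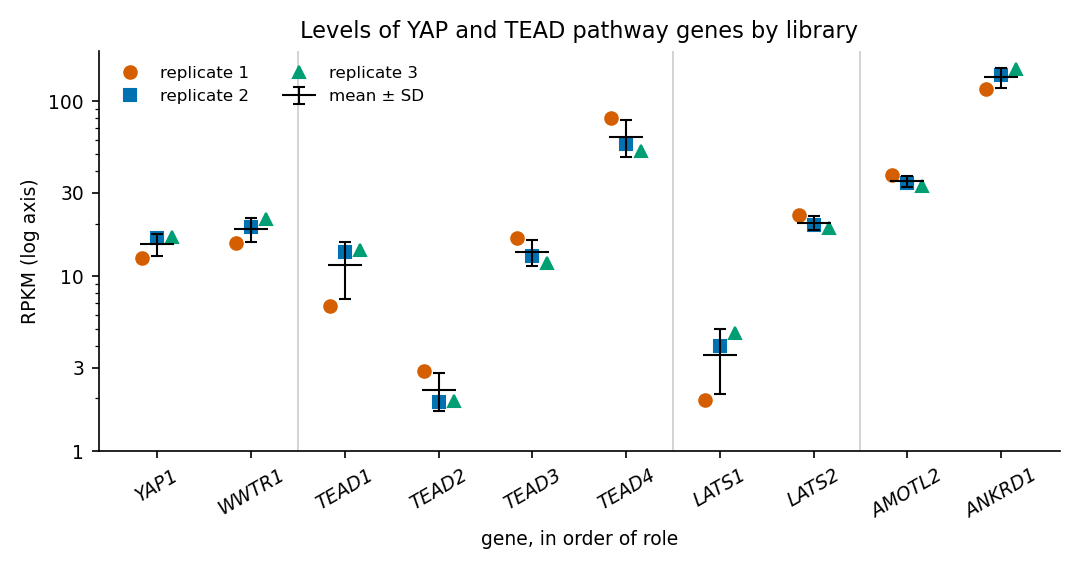
Level of each of the 10 genes in RPKM on a log axis, by library (symbols) with the mean ± SD of 3 libraries (bars); grey lines separate coactivators, TEAD factors, LATS kinases and responsive genes. ANKRD1 and TEAD4 are highest at 137 and 62.8 RPKM, TEAD2 is lowest at 2.24 RPKM, and replicate 1 lies well below the others for TEAD1 and LATS1.

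TEAD4 accounted for most of the TEAD level in every library. Its share of the summed TEAD level in RPKM was 75.4%, 66.5% and 64.8% in replicates 1, 2 and 3, and 68.9% ± 5.68 in the mean. TEAD3 took 15.2% ± 0.249, and TEAD2 took 2.46% ± 0.233. The share of TEAD1 was 6.41% in replicate 1 but 16.1% and 17.7% in replicates 2 and 3. Without length scaling, as shares of reads, TEAD4 took 58.6%, 40.9% and 38.5%, and TEAD1, which has the longest exons of the family, took 22.5%, 44.7% and 47.6%. TEAD3 took 16.1%, 12.5% and 11.95% of the reads. TEAD1 therefore gave more reads than TEAD4 in replicates 2 and 3 while its level per kilobase was lower in all 3 libraries.

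Of the 6 TEAD pairs, 5 had a ratio of RPKM past the replicate spread. TEAD4 exceeded TEAD3 4.49-fold (log2 TEAD3/TEAD4 -2.17 ± 0.09), TEAD1 5.58-fold (log2 TEAD1/TEAD4 -2.48 ± 0.92) and TEAD2 26.9-fold (log2 TEAD2/TEAD4 -4.75 ± 0.08). TEAD3 exceeded TEAD2 5.98-fold (log2 TEAD2/TEAD3 -2.58 ± 0.11). TEAD1 exceeded TEAD2 4.81-fold (log2 2.27 ± 0.91), a call that was lost without replicate 2 (2.01) or replicate 3 (2.00) and with the exon length outside other spans (1.47), and that was 4.08 without length scaling. The call for TEAD1/TEAD4 was lost without length scaling (-0.31). With the exon length outside other spans, TEAD2/TEAD4 was -3.95 and TEAD2/TEAD3 was -1.79, and both remained past the spread. TEAD1 and TEAD3 could not be ordered: their log2 ratio TEAD1/TEAD3 was -1.26 in replicate 1 and 0.08 and 0.24 in replicates 2 and 3. The 4 genes share almost no sequence at the length of a short read. Among stretches of 50 bases in their GENCODE transcripts, TEAD3 and TEAD4 had 7 in common (0.227% and 0.280% of each gene's), and no other pair of the 10 genes had any.

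**Figure D2:**
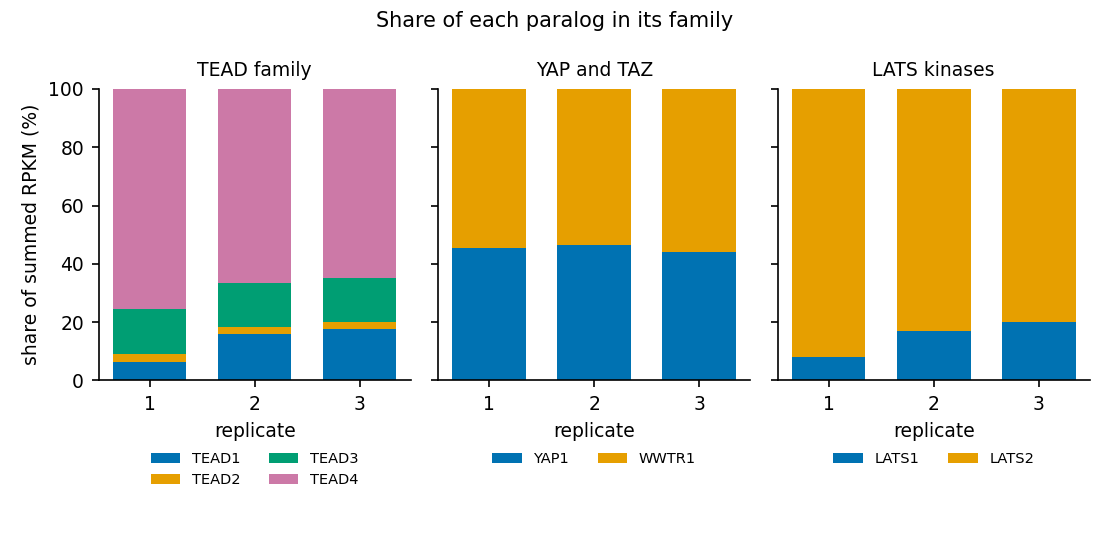
Share of each paralog in the summed level (RPKM) of its family, in percent, for the TEAD factors, the coactivators and the LATS kinases in replicates 1, 2 and 3. TEAD4 takes 64.8% to 75.4% of the TEAD level and LATS2 79.97% to 92.0% of the LATS level, while YAP1 stays between 44.1% and 46.4%.

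Of the inhibitory kinases, LATS2 was much the more abundant. LATS2 (chromosome 13, 20973032 to 21061547, minus strand) stood at 22.4, 19.6 and 18.9 RPKM in replicates 1, 2 and 3, a mean level of 20.3 ± 1.84 RPKM from 3388, 2963 and 3669 reads. Its libraries lay close together, and without replicate 1 its level was 19.2 RPKM. LATS1 (chromosome 6, 149658153 to 149718256, minus strand) stood at 1.96, 4.01 and 4.74 RPKM from 459, 941 and 1424 reads, a mean level of 3.57 ± 1.44 RPKM and 4.37 RPKM without replicate 1. Replicate 1 gave less LATS1 than either of the other libraries. LATS2 exceeded LATS1 5.90-fold in RPKM, and the log2 ratio LATS1/LATS2 of -3.45, -2.26 and -1.97 (mean -2.56 ± 0.78) was past the replicate spread. Without length scaling the mean was -1.96, also past it. The summed level of both kinases was 24.3, 23.6 and 23.6 RPKM, of which LATS2 took 92.0%, 83.0% and 79.97%. After GC correction the sum was 22.8, 23.9 and 24.0 RPKM.

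The responsive genes were among the most abundant of the 10. ANKRD1 (chromosome 10, 90912096 to 90921276, minus strand), which encodes an ankyrin repeat protein of muscle and of stressed or spreading cells, was highest. The level of ANKRD1 was 118, 141 and 153 RPKM in replicates 1, 2 and 3, a mean of 137 ± 17.7 RPKM from 6349, 7572 and 10542 reads, and 147 RPKM without replicate 1. It ranked 235 of the 10201 detected protein-coding genes by mean RPKM. AMOTL2 (chromosome 3, 134355874 to 134375479, minus strand), a junctional scaffold of the angiomotin family that binds YAP and restrains it, stood at 37.9, 34.0 and 32.7 RPKM. The mean level of AMOTL2 was 34.9 ± 2.69 RPKM from 6153, 5533 and 6801 reads, with the smallest relative spread of the 10 genes (coefficient of variation 7.73%, against 40.4% for LATS1). Without replicate 1 its level was 33.4 RPKM. The log2 ratio AMOTL2/ANKRD1 was -1.97 ± 0.30 in RPKM, past the replicate spread, and -0.38 without length scaling, where the call was lost. AMOTL2 in turn exceeded its paralog AMOTL1 36.1-fold (log2 AMOTL1/AMOTL2 -5.17 ± 0.10), though with a pseudocount of 1 in place of 0.1 the ratio was -4.26, and without length scaling -4.57.

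From high to low, the mean levels in RPKM ran ANKRD1, TEAD4, AMOTL2, LATS2, WWTR1, YAP1, TEAD3, TEAD1, LATS1 and TEAD2. Of the 9 pairs of neighbours in this order, 5 differed by more than the replicate spread. The 4 that did not were LATS2 and WWTR1 (log2 difference 0.13 ± 0.36), YAP1 and TEAD3 (0.15 ± 0.45), TEAD3 and TEAD1 (0.31 ± 0.82), and LATS1 and TEAD2 (0.58 ± 0.97). In each of those 4 the sign in replicate 1 was opposite to that in replicate 3.

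**Figure D3:**
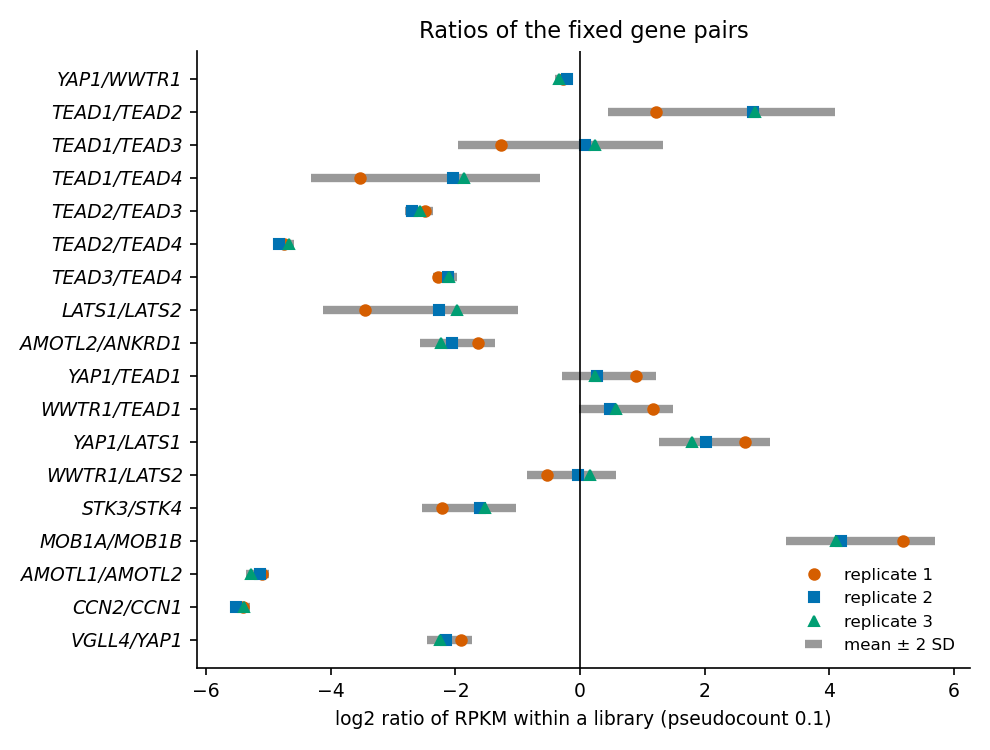
Log2 ratio of RPKM within each library (symbols) for the 18 fixed gene pairs, with the mean ± 2 SD (grey bars); a bar clear of 0 marks a ratio past the replicate spread. Of the 18 ratios 14 are past it, and those with TEAD1 or LATS1 have the widest bars among the 10 genes.

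Coactivators and their partners or kinases were also set side by side within libraries. Of all 18 fixed pairs, 14 had a ratio past the replicate spread. YAP1 exceeded LATS1 4.45-fold in RPKM (log2 2.15 ± 0.44). The log2 ratio of YAP1 to TEAD1 was 0.90, 0.27 and 0.24 in replicates 1, 2 and 3 and did not pass (0.47 ± 0.38), although it did without replicate 1 (0.25) and after GC correction (0.47). The log2 ratio of WWTR1 to TEAD1 was 0.74 ± 0.38 and did not pass either, but it passed without replicate 1 (0.53), without replicate 2 (0.88), with a pseudocount of 1 (0.69), with the exon length outside other spans (0.93) and with the longest coding transcript (1.21). WWTR1 and LATS2 could not be told apart (-0.13 ± 0.36).

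For the 10 genes, replicate 1 was the lowest or the highest library at close to the shares of all detected protein-coding genes. The lowest and highest sets were split by transcript GC content. In CPM, replicate 1 was the lowest library for 5 genes (background 42.4% of detected protein-coding genes) and the highest for the other 5 (background 50.1%). The first 5, YAP1, WWTR1, TEAD1, LATS1 and ANKRD1, all have a GC content below 45%, and the other 5, TEAD2, TEAD3, TEAD4, LATS2 and AMOTL2, all have one above 50%. Detected protein-coding genes as a whole followed the same trend. In log2 CPM, replicate 1 minus the mean of the others had a median of -1.46 in the lowest of 20 GC bins. In the highest bin that median was 0.43. LATS1, at 39.7% GC, differed by -1.16 on the log2 CPM scale between replicate 1 and the mean of the others, and TEAD1, at 41.3% GC, by -1.04. These 2 genes were below 50% of the other libraries in replicate 1, as were 13.3% of detected protein-coding genes. At the other end, TEAD2 (58.4% GC) was 0.57 and TEAD4 (60.4% GC) 0.56 higher in replicate 1. None of the 10 was more than 2-fold higher there (background 0.137%).

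The same differences were set beside those of other genes of similar GC content. With detected protein-coding genes divided into 20 bins by GC content, 9 of the 10 lay between the 10th and 90th percentiles of their bin. By construction that range holds most genes of every bin, so this count does not set the 10 apart. TEAD2 lay just above that range, at 0.573 against 0.571. The bin medians were -0.91 for LATS1, -0.49 for TEAD1 and 0.37 for TEAD4. After correction for the GC trend the largest remaining difference among the 10 was that of TEAD1, at -0.49, and none was below 50%. Replicates 2 and 3 differed by at most 0.24 (LATS1) on the log2 CPM scale. None of the 10 differed more than 1.5-fold between those 2 libraries, as 1.7% of detected protein-coding genes did.

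**Figure D4:**
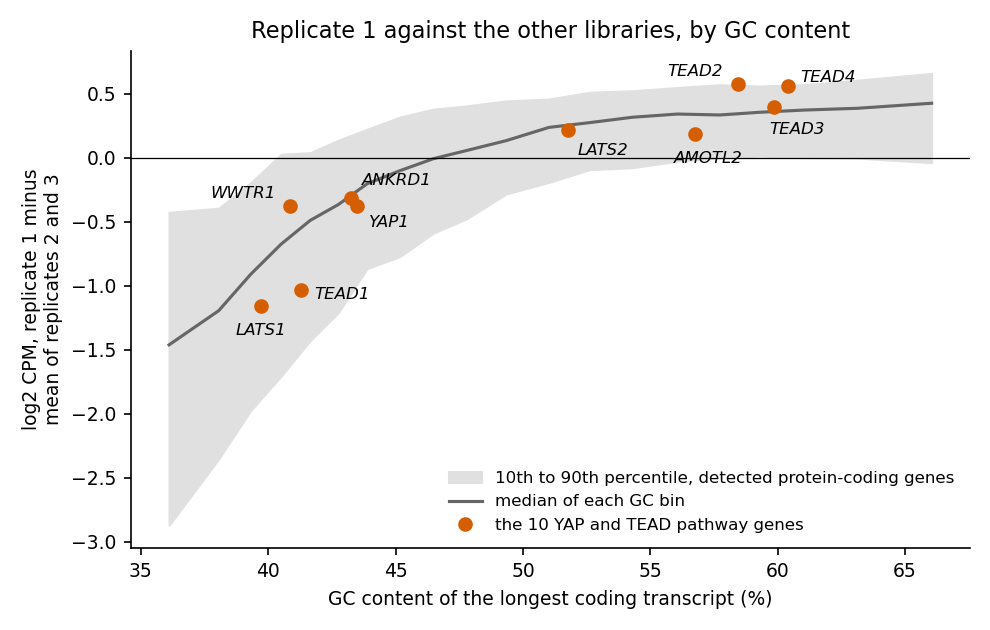
Difference in log2 CPM between replicate 1 and the mean of replicates 2 and 3, plotted against the GC content of the longest coding transcript for the 10 genes (points), with the median (line) and the 10th to 90th percentiles (band) of detected protein-coding genes in 20 GC bins. The 5 genes under 45% GC lie below 0 and the 5 above 50% GC lie above 0.

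Upstream of LATS, 19 of 20 Hippo kinases and scaffolds were detected, with a median level of 5.41 RPKM. The background of detection, for this list and those below, was 51.4% of protein-coding genes. The highest were the scaffold WWC1 (KIBRA) at 29.6 ± 3.20 RPKM, the tumour suppressor NF2 (merlin) at 26.5 ± 9.16, the LATS-related kinase STK38 at 23.2 ± 1.91 and MAP4K4, a kinase that acts on LATS, at 19.9 ± 1.80 RPKM. Without replicate 1 the order was WWC1 (27.9 RPKM), STK38 (24.3), MOB1A (23.1) and NF2 (21.4), with MAP4K4 next at 20.9 RPKM. The lowest were MAP4K1, a kinase of blood cells, with 10, 4 and 17 reads, MOB1B at 0.872 RPKM and STK38L at 1.38 RPKM. Of the paralogs, MOB1A, the LATS cofactor, exceeded MOB1B 22.5-fold (log2 4.49 ± 0.60), and the log2 ratio was 3.40 with a pseudocount of 1. It was largest in replicate 1 (5.18, against 4.19 and 4.10), where MOB1B had 48 reads, against 272 and 391. Without replicate 1 the mean log2 ratio was 4.15. STK4 (MST1) exceeded STK3 (MST2) 3.45-fold (log2 STK3/STK4 -1.78 ± 0.38), but with the length of the longest coding transcript the ratio was -0.33 and did not pass. Of the 19 detected genes, 6 were below 50% of the other libraries in replicate 1, against 13.3% of detected protein-coding genes, and the median GC content of the 19 was 43.4%, against 48.5% for those genes.

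Junctional, polarity and cytoskeletal inputs were detected for 15 of 16 genes, at a median of 2.51 RPKM. None of the 15 was below 50% in replicate 1 (background 13.3% of detected protein-coding genes). The adherens junction protein CTNNA1 stood at 76.9 ± 5.07 RPKM, the polarity protein SCRIB at 31.4 ± 7.52, FRMD6 at 11.8 ± 2.64 and DLG5 at 9.29 ± 0.868 RPKM. The large cadherins DCHS1 and FAT4 stood at 0.138 and 0.231 RPKM. Genes that hold the kinases in check, most of them in the STRIPAK phosphatase complex, were detected for 9 of 9, led by the scaffold subunit PPP2R1A at 54.0 ± 11.3 RPKM and STRN4 at 16.2 ± 2.64 RPKM. ITCH, a ubiquitin ligase that acts on LATS1, stood at 9.38 ± 1.54 RPKM. STRN3, SIKE1 and SLMAP were lowest, at 1.86, 2.92 and 3.46 RPKM. Of the 9 genes, 4 were below 50% in replicate 1, against 13.3% of detected protein-coding genes. The median GC content of the 9 was 40.7%, against 48.5% for detected protein-coding genes. With all reads divided by the exon length outside other spans, PPP2R1A stood at 111 and STRN3 at 3.03 RPKM.

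The genes that retain or degrade YAP and TAZ were all detected (8 of 8), at a median of 34.1 RPKM. In replicate 1, 0 of 8 were below 50% (background 13.3% of detected protein-coding genes). The 14-3-3 genes YWHAE, YWHAQ, YWHAZ and YWHAB stood at 165 ± 16.3, 161 ± 12.1, 78.0 ± 3.45 and 75.4 ± 6.57 RPKM. The ubiquitin ligase subunit BTRC stood at 4.74 ± 0.222 RPKM. The casein kinases CSNK1D and CSNK1E stood at 2.16 and 6.57 RPKM, and other genes span 85.9% and 80.4% of their exon length. All their reads divided by the length outside those genes gave 15.3 and 33.4 RPKM. Of 8 other cofactors of TEAD, 4 were detected, close to the background of 51.4% of protein-coding genes. The 4 were RUNX2 at 9.37 ± 0.973, NCOA3 at 7.51 ± 1.63, NCOA1 at 4.19 ± 0.265 and VGLL4 at 3.48 ± 0.172 RPKM. VGLL4, which competes with YAP for TEAD, was 4.29-fold below YAP1 in RPKM (log2 VGLL4/YAP1 -2.10 ± 0.18), and the ratio was -1.38 with the longest coding transcript. VGLL1, VGLL2 and VGLL3 were listed at 0 reads in each library.

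Of a 22-gene signature of YAP and TAZ targets known from other tumours, which includes LATS2, AMOTL2 and ANKRD1, 20 genes were detected (background 51.4%). The median level of all 22 was 33.5 RPKM, against 0.460 RPKM for all protein-coding genes. That of the 20 detected ones was 35.7 RPKM, against 5.96 RPKM for detected protein-coding genes. The matricellular gene CCN1 (CYR61) was highest, at 478 ± 79.3 RPKM, with the receptor kinase AXL at 141 ± 40.7, ANKRD1 as above, and the coagulation factor receptor F3 at 108 ± 26.6 RPKM. Without replicate 1 F3 stood at 123 and AXL at 118 RPKM, so that their order was reversed. CCN2 (CTGF), often used beside CCN1 as a readout of YAP, stood at only 10.97 ± 2.05 RPKM from 846, 605 and 820 reads. CCN1 exceeded CCN2 43.3-fold (log2 CCN2/CCN1 -5.41, -5.51 and -5.38). FOXF2 and TGFB2 were not detected, with 2, 0 and 0 and with 12, 22 and 14 reads. RBMS3 was next at 0.769 RPKM, or 1.67 RPKM with all its reads divided by the exon length outside other spans. The motif was found in 9 of the 16 signature genes with a promoter entry (9 of 18 windows, against 14% of all windows), FOXF2 and TGFB2 among them. LATS2, AMOTL2 and ANKRD1 are 3 of these 9. M-CAT sites in more distant enhancers lie outside these windows.

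**Figure D5:**
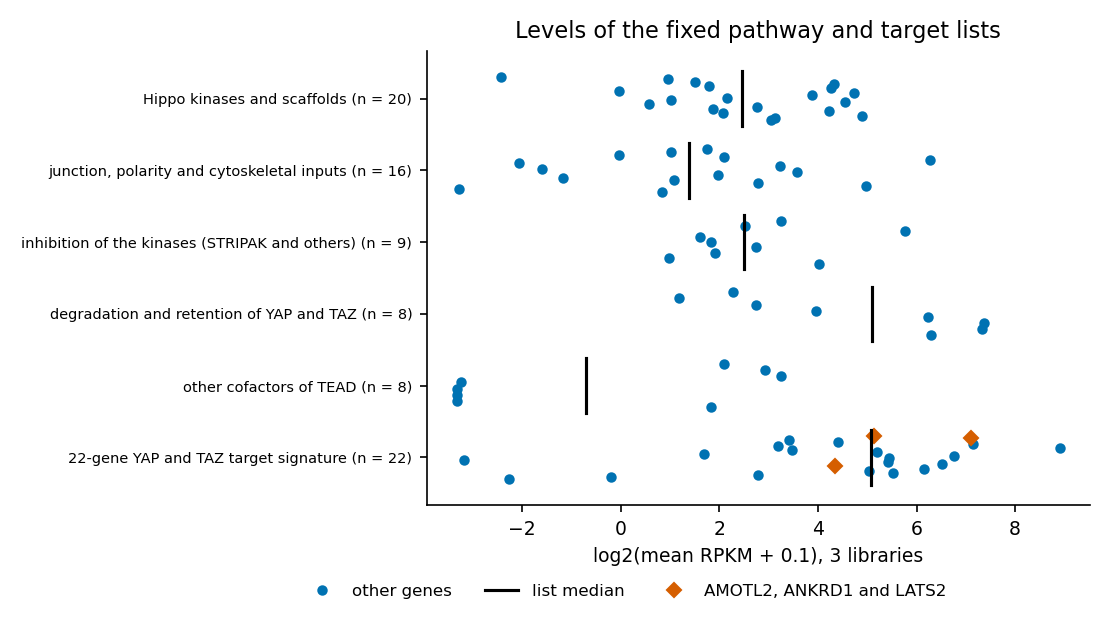
Level of each gene, as log2(mean RPKM + 0.1) over 3 libraries, in 6 fixed lists of pathway and target genes, with the list medians (black lines); AMOTL2, ANKRD1 and LATS2 are drawn as diamonds. The target signature and the list of retention and degradation genes have the highest medians, 33.5 and 34.1 RPKM, and the other cofactors of TEAD the lowest.

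Among 71 other genes of these lists with a mean CPM of at least 1 and a read in every library, those whose deviations from their own mean log2 CPM over the 3 libraries lay nearest to YAP1 were ITCH, ASAP1 and CRIM1 (Euclidean distances 0.049, 0.054 and 0.080). Those nearest to WWTR1 were NT5E, ITCH and TAOK3 (0.060, 0.117 and 0.130). With 3 libraries, of which replicate 1 stands apart, such distances hold little information, and all 5 of these genes were lowest in replicate 1.

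Overlap with other genes bears on some of the 10 levels. No exon of TEAD1, TEAD3, TEAD4, LATS2 or ANKRD1 lies inside another gene's span. For TEAD2 the share of exon length inside such spans was 43.4%, the largest of the 10. For YAP1, WWTR1, AMOTL2 and LATS1 it was 17.0%, 12.1%, 11.5% and 4.72%. The genes on the other strand there had few or no reads: those overlapping YAP1 and WWTR1 were listed at 0 in each library, and the one overlapping LATS1 at 3, 7 and 6. Of those overlapping TEAD2, CD37 and AC010524.1 were listed at 0 in each library and DKKL1 at 0, 2 and 0. The pseudogene RPL39P5, on the same strand as AMOTL2, had 6, 16 and 10 reads. Whether reads of the 10 genes were lost in these overlaps was not tested.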

How the data were processed

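RNA-seq values of 3 libraries of 1 group were used. The tools named per the submitters' processing notes are HISAT2 2.1.0, featureCounts 2.0.0, cutadapt 1.18 and FastQC, with build hg38. Which annotation release, strand setting and options went into counting is not given in the sources used here. Each deposited value is a signal: gene counts that the authors had divided by 1 factor per library. This was found from the values, since 100% of nonzero values were whole multiples of 1 read within 0.01 of a read. The design had been planned for counts, so whole reads were recovered from the signal and used. With 1 group no count test could be run, and no genes were called changed. Counts of 2 were commoner than counts of 1 (1621 against 269 genes in replicate 1), the cause of which was not tested. The labels call the libraries biological replicates.

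Reads were scaled with TMM (edgeR 4.0.16, R 4.3.3). Of 60605 identifiers 58337 (96.3%) matched GENCODE 29 (GRCh38), which gave exon lengths and, from the longest coding transcript, GC content; the release need not be the authors'. Ratios and list medians used log2(RPKM + 0.1), medians being turned back to RPKM. Levels over the exon length outside other spans kept all reads of a gene and shortened only the length. GC correction removed each library's median log2 deviation, interpolated over 20 GC bins of detected protein-coding genes. It was tested on simulated data, as was the recovery of reads. The simulated GC trend was a straight line with the same spread for all genes. In these data the trend flattened at high GC content and the spread was wider at low GC content. The simulation therefore cannot show how well the correction worked for genes of low GC content. Promoter windows came from RefSeq (GRCh38.p14). The 10 genes, 6 pathway and target lists, marker lists and 18 pairs were chosen with earlier results of these data known. Genes named from each list were the 4 highest and 3 lowest, both genes of each pair, and the 3 nearest in pattern to YAP1 and to WWTR1; 3 genes that this rule names are not reported here. Alternatives were scaling (the authors' own, DESeq2 1.42.0), the pseudocount, detection thresholds, exon length, GC correction and leaving out each library; the length of the longest coding transcript was added after seeing the data.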

Additional observations from a re-analysis of the deposited data

How the results depend on the processing

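All 10 genes stayed detected at a CPM of 0.1, at 10 reads, under the authors' and DESeq2 scaling and without any 1 library; at a CPM of 10, 9 did, TEAD2 being the exception. Their median level was 19.3 RPKM with exon length outside other spans, 19.1 RPKM with the longest coding transcript (added after seeing the data) and 15.9 to 17.9 RPKM with 1 library left out. Of the 18 pairs, 12 to 16 were past the replicate spread under the alternatives, against 14. With 1 library left out the log2 ratio ran from -0.31 to -0.24 for YAP1/WWTR1 (-0.69 without length scaling, -0.79 with the longest coding transcript), -2.79 to -1.95 for TEAD1/TEAD4 and -2.85 to -2.12 for LATS1/LATS2. GC correction ended the call for YAP1/WWTR1 (-0.28, SD 0.21), and leaving out length scaling ended that for TEAD1/TEAD4 (-0.31). Signs reversed without length scaling for TEAD1/TEAD3 (1.43), YAP1/TEAD1 (-0.23) and WWTR1/LATS2 (0.46), and without replicate 1 for TEAD1/TEAD3 (-0.59 to 0.16 over the libraries left out) and WWTR1/LATS2 (-0.28 to 0.065). WWTR1/LATS2 was also reversed with exon length outside other spans (0.051) and with the longest coding transcript (0.59); none of these 3 pairs was past the spread as reported. After GC correction 0 genes were below 50% in replicate 1, and the difference of replicate 1 changed sign for WWTR1 (0.24), LATS2 (-0.033) and AMOTL2 (-0.15). The cause of these changes was not tested beyond what each alternative alters. No paired analysis was possible because there is 1 group. TEAD2 rested on the fewest reads of the 10 genes, 155 to 232. Its coefficient of variation was 24.2%, against 40.4% for LATS1 with 459 to 1424 reads. How far depth limits the low genes was not tested.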
